A study of Mus musculus with 2 samples.

Results

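The methionine cycle and the betaine pathway were examined through 10 genes of 37074 gene names on the arrays, namely Bhmt, Bhmt2, Gnmt, Mat1a, Mat2a, Cbs, Ahcy, Dmgdh, Sardh and Chdh. The genes were picked by name with the ratios of these arrays known, so every ratio below is a description and not a test. Total RNA of the prefrontal cortex (PFC) of male mice labelled C57Bl/6 N sea, 9 to 10 weeks old at the start, was hybridized to 1-color Agilent arrays, 1 array for the C group and 1 for the CMS group. Mice of the CMS group lived alone and went through 4 weeks of chronic mild stress (CMS), a varied schedule that included water deprivation, restraint and forced swimming, with dissection on the day that followed. Mice of the C group lived together under ordinary care, so stress and housing cannot be told apart. The design text gives 7 mice in each RNA pool, whereas the methods give 10 mice per group for arrays and qRT-PCR. With 1 pooled array per group there was no spread between mice, and no difference was tested. In pooled tissue a difference in the number of cells of a type and one in the RNA per cell cannot be told apart.

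Methionine is activated to S-adenosylmethionine, the methyl donor of the cell, by methionine adenosyltransferases. Mat1a encodes the enzyme of adult liver and Mat2a the enzyme of most other tissues. Transfer of the methyl group leaves S-adenosylhomocysteine, which Ahcy splits into adenosine and homocysteine. Homocysteine is either remethylated to methionine, with folate or betaine as the donor, or passed to cysteine through Cbs. Betaine is made from choline by Chdh, and Bhmt, an abundant liver enzyme, uses it to remethylate homocysteine. The dimethylglycine that remains is broken down by Dmgdh and then by Sardh. In the brain the folate route is the one generally held to supply methionine.

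The genes of the homocysteine methyltransferases Bhmt and Bhmt2, of the liver methionine adenosyltransferase, of glycine methylation and of dimethylglycine breakdown had higher signals for CMS than for C. These were Mat1a, Bhmt, Dmgdh, Bhmt2 and Gnmt, 5 of the 10 genes, and each passed 2-fold. None was more than 2-fold lower. Values for C and CMS below are those of the pooled RNA of each group. Among all 27098 gene names with a ratio, 1.96% were more than 2-fold higher and 0.565% more than 2-fold lower, or 2.52% either way. Of the names past 2-fold, 77.6% were higher, and 63.2% were when the arrays were not scaled. The median log2 ratio of CMS over C was 1.29 over the 10 genes, and -0.03 over all gene names. The 10 values lay in separate ranges. The 5 higher genes had log2 ratios of 2.16 and above, and the other genes ran from -0.34 to 0.41. The probes of each array were scaled to a mean signal of 2500. Each signal is given with the error that the scanner software assigned to it, which covers the measurement of the spot and not the mice.

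The genes Bhmt, Bhmt2 and Dmgdh follow one another on mouse chromosome 13, and all of them were among the higher genes. Windows from 250 bases before to 50 bases after the start of transcription are shown for 3 genes, from RefSeq and the build GRCm38.p6. The window of Bhmt is shown because it alone, among the enzymes with a window, held a core of the Hnf4a binding sequence. No window of Mat1a was searched. Dmgdh is shown because its window overlaps that of Bhmt2. The window of Mat2a is shown for contrast, as a gene with nearly equal signal in both pools. Capitals mark CAAAGGTCA in Bhmt, the 133 bases between the start sites of Bhmt2 and Dmgdh in Dmgdh, and TATAAA with GGGCGG on either strand in Mat2a. The windows lie at chr13:93637709-93638008 on the minus strand for Bhmt, at chr13:93674186-93674485 on the plus strand for Dmgdh and at chr6:72439507-72439806 on the minus strand for Mat2a.
Bhmt: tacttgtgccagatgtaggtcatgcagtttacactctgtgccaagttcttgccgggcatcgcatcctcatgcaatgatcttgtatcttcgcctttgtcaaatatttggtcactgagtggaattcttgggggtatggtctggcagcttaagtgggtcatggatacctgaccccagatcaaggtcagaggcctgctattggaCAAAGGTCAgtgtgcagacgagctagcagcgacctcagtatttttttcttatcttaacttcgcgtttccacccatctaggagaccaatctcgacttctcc
Dmgdh: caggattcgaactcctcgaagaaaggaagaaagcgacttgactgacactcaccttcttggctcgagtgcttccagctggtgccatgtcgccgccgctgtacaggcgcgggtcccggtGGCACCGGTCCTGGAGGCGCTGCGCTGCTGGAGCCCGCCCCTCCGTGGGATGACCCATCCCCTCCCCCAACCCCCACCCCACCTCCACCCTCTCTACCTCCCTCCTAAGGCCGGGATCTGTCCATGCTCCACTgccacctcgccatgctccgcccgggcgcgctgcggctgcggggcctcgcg
Mat2a: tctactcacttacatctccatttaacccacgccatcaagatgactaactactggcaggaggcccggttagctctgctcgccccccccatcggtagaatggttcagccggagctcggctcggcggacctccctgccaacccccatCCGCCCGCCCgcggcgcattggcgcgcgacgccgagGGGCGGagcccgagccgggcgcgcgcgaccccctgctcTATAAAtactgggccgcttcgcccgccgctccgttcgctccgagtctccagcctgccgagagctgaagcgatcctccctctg

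Bhmt, which remethylates homocysteine with betaine, was measured by 3 probes (NM_016668). The first had a scaled signal of 412 ± 41.3 for C and 5266 ± 527 for CMS (scanner error). The second had 312 ± 31.5 and 3444 ± 344, and the third 63.3 ± 7.52 and 731 ± 73.2. All probes were well above background in both pools, and on each the CMS value was far outside the scanner error of the C value. The ratios of the 3 probes were 12.8-fold, 11.0-fold and 11.5-fold, or 3.68, 3.46 and 3.53 on the log2 scale. They therefore lay close together although the probes differ in brightness. The log2 ratio that the paper printed for Bhmt was lower than that of each probe. It equalled the 2.21 that Bhmt2 and Dmgdh had on the intensities the authors deposited, where Bhmt had 3.69. The reason for this difference was not tested. On its brightest probe Bhmt had the 10th highest log2 ratio of the 27098 gene names, with dim probes entered at their bounds.

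Bhmt2 encodes a relative of Bhmt that uses S-methylmethionine as the methyl donor. Its probe (NM_022884) had a scaled signal of 26.3 ± 5.40 for C and 120.5 ± 12.9 for CMS, a fold change of 4.58. The log2 ratio was 2.19, with a scanner error of 0.33. The C value was close to 17.8, the lowest signal well above background there, and the scanner error of this ratio was the largest among the 5 higher genes with one. Bhmt and Bhmt2 are similar in sequence, and cross-hybridization between their transcripts was not tested.

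Dmgdh oxidizes dimethylglycine, the product that Bhmt leaves from betaine. Its probe (NM_028772) had a scaled signal of 37.5 ± 5.88 for C and 172 ± 17.8 for CMS. This was a 4.59-fold difference, or 2.20 ± 0.27 on the log2 scale (scanner error). The ratios of Dmgdh and Bhmt2 differed by less than the scanner error of either.

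Gnmt transfers a methyl group from S-adenosylmethionine to glycine, and is known for disposing of excess methyl groups in liver. Its probe (NM_010321) had a scaled signal of 309 ± 31.2 for C and 1382 ± 138 for CMS. The difference was 4.47-fold, or 2.16 ± 0.21 on the log2 scale (scanner error). Gnmt, Bhmt2 and Dmgdh took places 224, 220 and 218 when all gene names were ordered from the highest log2 ratio down.

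**Figure D1:**
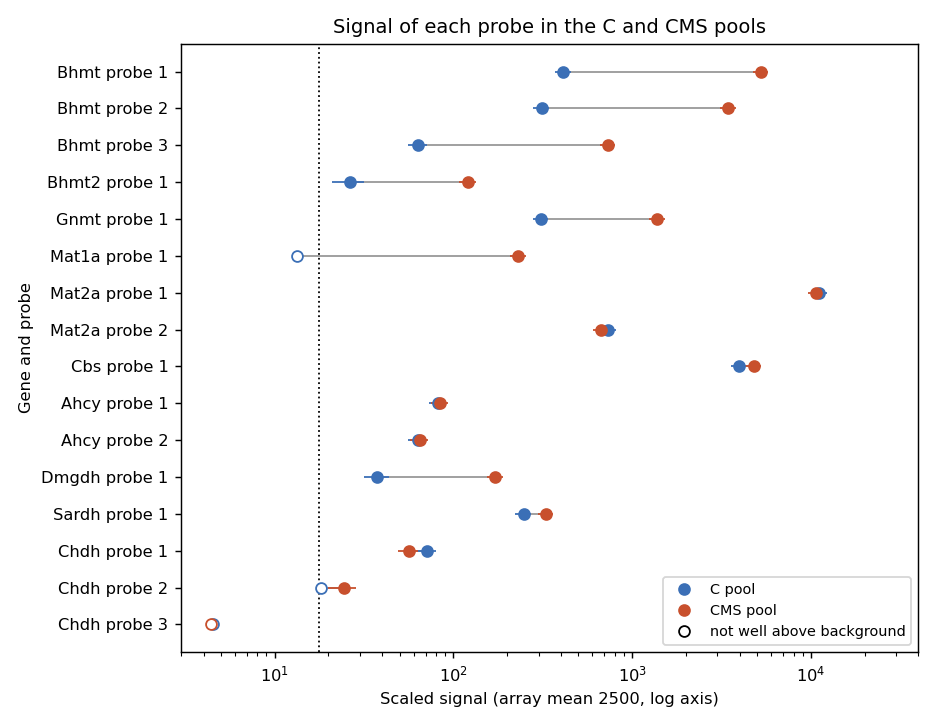
Scaled signal on a log axis for all 16 probes of the 10 genes, with the C pool in blue and the CMS pool in red, bars giving the scanner error of signals well above background, and open circles for signals not well above background. The dotted line is the lowest signal well above background on the C array, 17.8. The 3 Bhmt probes and the probes of Bhmt2, Gnmt, Mat1a and Dmgdh are separated between the pools, and the others lie close together.

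The 2 genes for methionine adenosyltransferase differed in their ratios. The Mat1a probe (NM_133653) gave 13.3 for C, which is not well above background, and 231 ± 23.4 for CMS. Set against the lowest signal well above background on the C array, Mat1a was higher for CMS by at least 12.97-fold, a log2 ratio of at least 3.70. This bound holds for that limit and this processing only. With normexp correction followed by quantile normalization the log2 ratio was 2.13. Mat2a was measured by 2 probes (NM_145569). The brighter had a scaled signal of 11167 ± 1117 for C and 10695 ± 1069 for CMS, and the other had 736 ± 73.7 and 668 ± 66.9. The log2 ratios were -0.06 and -0.14, each smaller than its scanner error of 0.20.

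Ahcy, which removes S-adenosylhomocysteine in all cells, had nearly equal signals in both pools. Its first probe (NM_016661) had 81.9 ± 9.23 for C and 84.3 ± 9.45 for CMS, and its second 63.2 ± 7.63 and 64.8 ± 7.66. Both log2 ratios were 0.04, with scanner errors of 0.23 and 0.24. Both probes were dim, near the array medians of 64.7 for C and 66.2 for CMS. How well they report the transcript was not tested. Cbs, which joins homocysteine and serine to cystathionine and is expressed in astrocytes as well as liver, had 3961 ± 396 for C and 4783 ± 478 for CMS (NM_144855). Its log2 ratio of 0.27 was not much larger than its scanner error of 0.20.

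The enzymes at either end of the betaine branch stayed below 2-fold. Sardh, which converts sarcosine to glycine after the step of Dmgdh, had a scaled signal of 247 ± 25.05 for C and 329 ± 33.1 for CMS (NM_138665). This was 1.33-fold higher for CMS, or 0.41 ± 0.21 on the log2 scale (scanner error). Chdh, which oxidizes choline on the way to betaine, was measured by 3 probes that did not give one direction. The brightest (NM_001136240) had 71.3 ± 8.34 for C and 56.3 ± 7.10 for CMS, a log2 ratio of -0.34 ± 0.25. A second probe of that accession was well above background for CMS alone, at 24.3 against 18.2, with a ratio of at least 1.33-fold. The third (NM_175343) was not well above background in either pool. No direction can be given for Chdh.

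Spots around each probe did not share these differences. Over the spots within 10 rows and 10 columns of a member probe, the median log2 ratio lay between -0.06 and 0.00 for all 16 probes. Between 209 and 276 spots entered each of these medians.

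The ratios of the genes next to Bhmt, Bhmt2 and Dmgdh on chromosome 13 were then read. The protein-coding genes before Bhmt with a probe named here were Jmy, with a log2 ratio of 0.25, Homer1, with 0.16, and Tent2, with -0.11. After Dmgdh came Arsb, with -0.30, Lhfpl2, with -0.08, Scamp1, with -0.19, and Ap3b1, with -0.05. These genes are named for their place alone. All 7 were well above background in both pools and none passed 2-fold, whereas Bhmt, Bhmt2 and Dmgdh did. Over all gene names only 2.52% passed 2-fold either way, so neighbours within 2-fold are the usual case. Bhmt, Bhmt2 and Dmgdh were picked with their ratios known.

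**Figure D2:**
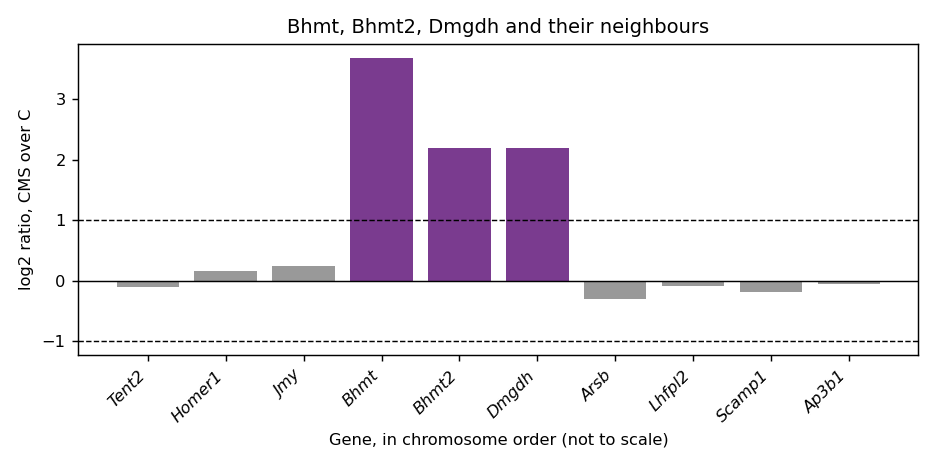
Log2 ratio of CMS over C for Bhmt, Bhmt2 and Dmgdh, in purple, and the protein-coding genes before and after them, in grey, in chromosome order and not to scale. Dashed lines mark 2-fold. The purple bars reach 3.68, 2.19 and 2.20, and the grey bars lie between -0.30 and 0.25.

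Start sites of Bhmt2 and Dmgdh lie 134 bases apart and point away from each other, so that their windows share 233 bases. The start of Bhmt lies 36544 bases from that of Bhmt2. The shared stretch was rich in G and C, with 73.4% of its bases, against a median of 52.7% over all 32851 windows in the table. The Bhmt window, shown above, had 48.0%. A promoter window was found for 9 of the 10 genes, with 3 windows for Chdh. For Mat1a no window was analysed here.

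Because the study centers on Hnf4a, a nuclear receptor of liver, 2 core sequences of its binding site were searched on both strands, CAAAGGTCA and CAAAGTCCA. The first also serves other nuclear receptors. The first was found in 0.478% of the 32851 windows and the second in 0.475%. Of the windows of the 9 genes, that of Bhmt held CAAAGGTCA, from 50 to 42 bases before the start site, and none held CAAAGTCCA. The palindromic consensus site of Hnf1 was in 0.00913% of all windows and in none of these. GGGCGG, a site of Sp1, was in 35.7% of all windows and in those of Bhmt2, Dmgdh, Mat2a, Cbs, Ahcy and Chdh. Both copies in Bhmt2 lie in the stretch it shares with Dmgdh, so they are the copies counted for Dmgdh. TATAAA was in 13.6% of all windows and, among these genes, in that of Mat2a, from 32 to 27 bases before the start. The searched sequences do not overlap one another in the windows printed above, apart from 2 copies of GGGCGG in Mat2a. A match is a match of letters, and no binding was measured here.

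Hnf4a itself (NM_008261) had a log2 ratio of 3.55 ± 0.24 (scanner error), close to that of Bhmt at 3.68. Gapdh, the reference gene of the qRT-PCR, had 0.04.

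The surrounding pathway was next described with 5 lists of genes. Of the 61 listed genes on the arrays, 5 were more than 2-fold higher for CMS, none was lower and 56 stayed within 2-fold. Their median log2 ratio was -0.01. Amd1 had no probe named here.

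In the methionine cycle and the salvage of methionine, all 11 genes stayed within 2-fold, with a median log2 ratio of -0.02. The folate-dependent methionine synthase Mtr had scaled signals of 1201 ± 120.1 for C and 1240.5 ± 124 for CMS, a log2 ratio of 0.05, and a second Mtr probe had 0.29 ± 0.23 (scanner error). Mat2b, the regulatory partner of the Mat2a enzyme, had a log2 ratio of -0.07, and the Ahcy relative Ahcyl1 had 0.05.

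In transsulfuration and the use of cysteine, 1 of 10 genes passed 2-fold, and the median log2 ratio was 0.01. It was Cth, which cleaves cystathionine to cysteine in the step after Cbs. Its brightest probe had 159 ± 16.5 for C and 331 ± 33.3 for CMS, a fold change of 2.08. A second Cth probe, with 164 and 305, had a log2 ratio of 0.90 and stayed below 2-fold.

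In the supply of choline and betaine, 1 of 9 genes passed 2-fold, and the median log2 ratio was 0.16. Pipox, a peroxisomal oxidase that acts on sarcosine and pipecolate, had 149 ± 15.6 for C and 371 ± 37.4 for CMS, 2.49-fold higher. Aldh7a1, which oxidizes betaine aldehyde after the step of Chdh, had a log2 ratio of 0.16. The probes of Pemt, which methylates phosphatidylethanolamine to phosphatidylcholine and so feeds choline into the pathway, did not give one size. The brightest had a log2 ratio of 0.21, and the others had 0.90 and 0.82.

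In the folate one-carbon cycle, 1 of 18 genes passed 2-fold, and the median log2 ratio was -0.10. It was Ftcd, a liver enzyme that passes one-carbon units from histidine breakdown to folate, with 67.0 ± 7.74 for C and 358 ± 36.0 for CMS. The fold change was 5.34. The serine hydroxymethyltransferase Shmt1 had a log2 ratio of -0.31.

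Among enzymes that use S-adenosylmethionine or its products, 2 of 13 genes on the arrays passed 2-fold, and the median log2 ratio was -0.01. Inmt, which methylates indolethylamines, had 404 ± 40.6 for C and 1064 ± 107 for CMS, 2.64-fold higher. Nnmt, which methylates nicotinamide, had 65.4 ± 7.84 and 150.2 ± 15.6, 2.30-fold higher. Gamt, which makes creatine, had a log2 ratio of -0.01.

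**Figure D3:**
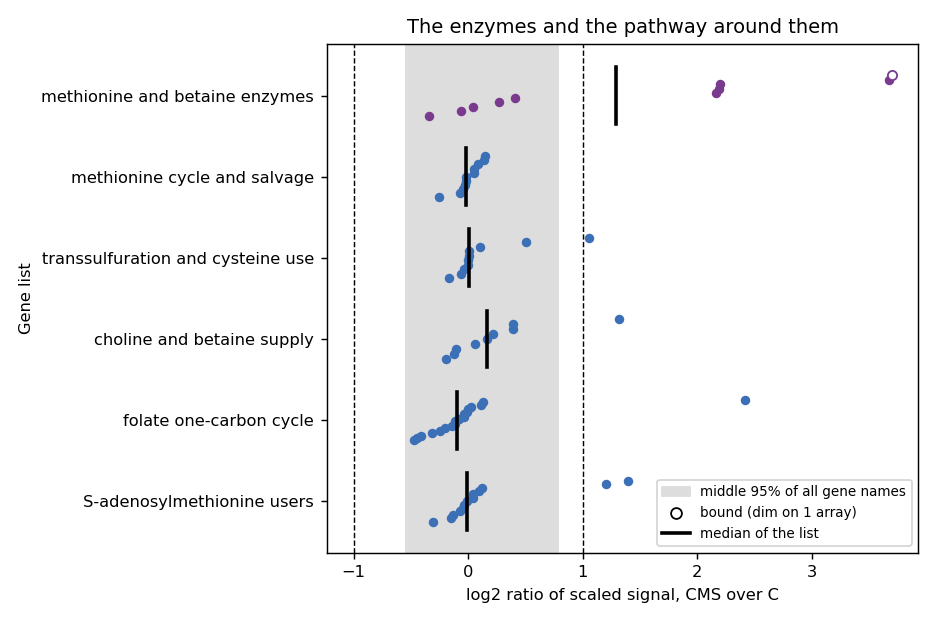
Log2 ratio of CMS over C for the 10 enzymes, in purple, and for the genes of 5 surrounding pathway lists, in blue, with the median of each list as a black bar. Grey marks the middle 95% of all gene names, dashed lines mark 2-fold, and open circles are bounds. The enzymes form a group between -0.34 and 0.41 and another from 2.16 to 3.70, and the medians of the other lists lie between -0.10 and 0.16.

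Markers of cell types were set beside these values. Cortical markers were bright and nearly equal in both pools, as in the labelled tissue. The 10 neuron markers had a median log2 ratio of -0.04, with -0.02 for Snap25, a presynaptic SNARE protein. The 8 astrocyte markers had a median of -0.08, with -0.30 for Gfap, and the 8 oligodendrocyte markers -0.15, with 0.11 for Mbp.

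Hepatocyte markers were higher for CMS along with the higher enzymes. Of 25 markers, 22 were more than 2-fold higher for CMS and none lower, with a median log2 ratio of 2.90. Their summed scaled signal was 29531 for C and 109674 for CMS. The brightest markers for C, named after their values were seen, were Apoa2, Rbp4 and Vtn, with 10714, 5614 and 5312, and these weigh most in the C sum. All 25 were well above background in both pools on the brightest probe. The lowest for C was Tdo2, named after its value was seen, at 20.9, close to the limit of 17.8. Alb, the albumin gene, had 1509 ± 151 for C and 17486 ± 1749 for CMS, a log2 ratio of 3.53. Apoa1 had a log2 ratio of 3.40 and Ahsg 3.38. The markers within 2-fold, named after their values were seen, were Rbp4, Tat and Vtn, with 0.95, 0.74 and 0.16. The ratios of the higher enzymes, with Mat1a at its bound, lay inside the range of these markers. For Bhmt, and for Mat1a at its bound, 1 marker had a higher ratio, and for Bhmt2, Gnmt and Dmgdh 19 of 25 did. These counts rest on the brightest probe of each marker. Named after their values were seen, second probes of Apoa2, Fga and Cyp2e1 had log2 ratios of 3.10, at least 2.77 and 2.95. On the brightest probes these markers had 1.20, 1.11 and 2.90, so the counts depend on the probe. The part of the hepatocyte signal in the values of the enzymes was not tested.

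Some of these enzymes are also made in kidney, and Gnmt in pancreas. Of 10 markers of the kidney proximal tubule, 5 passed the background limit for C and 5 for CMS, and none passed 2-fold. Their median log2 ratio was -0.13, their summed signal was 1632 and 1448, and Slc34a1 had -0.05. The 4 others, Lrp2, Slc7a13, Slc22a12 and Kap, named after their values were seen, were not well above background in either pool. Of 10 pancreatic acinar markers, 6 were well above background in each pool, the median was -0.13 and the summed signal was 1146 and 1043. For Kupffer cells, the macrophages of liver, 2 of 6 markers passed the background limit for C and 4 for CMS, with summed signals of 318 and 459. Of the 4 Kupffer cell markers with a ratio, 1 passed 2-fold. It was Clec4f, which defines these cells, with a ratio of at least 2.20-fold and a CMS signal of 39.2. Named after their values were seen, Vsig4 had a ratio of at least 1.98-fold, Marco 1.32-fold and Cd5l 1.22-fold. Timd4 and Cd163, also named after their values were seen, were not well above background in either pool.

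The other marker lists did not move in this way as a whole. The choroid plexus list had a median log2 ratio of 0.11 over 9 genes, although its summed signal was 1431 for C and 5707 for CMS. Ttr, which liver and choroid plexus both express, had 453 ± 45.5 and 4711 ± 471, and it was the only choroid plexus marker past 2-fold. The erythroid list had a median of 0.45 over 4 genes with a ratio, with summed signals of 36074 and 47465. Microglia markers had a median of 0.05 and brain endothelium markers one of 0.02.

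**Figure D4:**
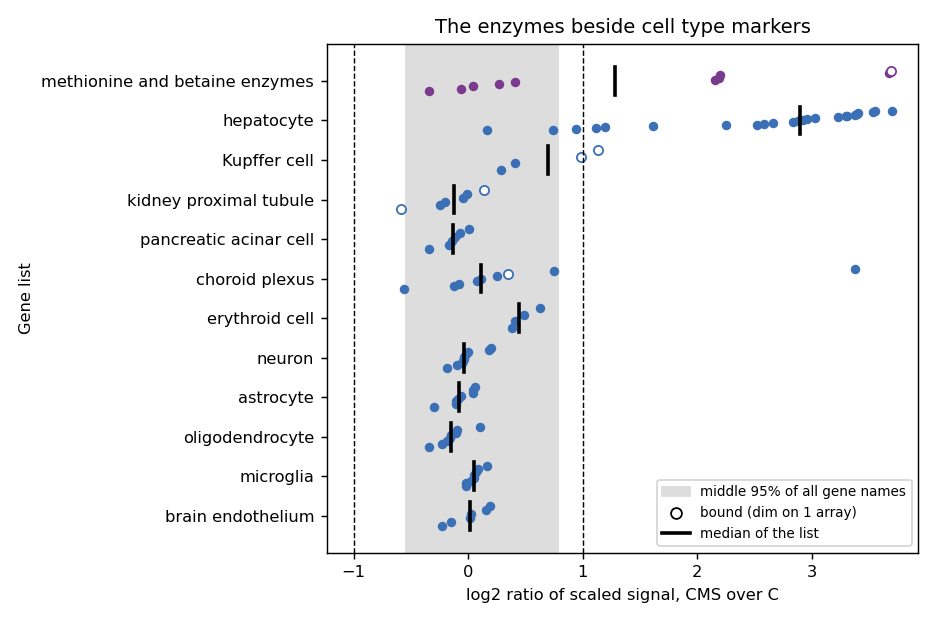
Log2 ratio of CMS over C for the 10 enzymes, in purple, beside the markers of 11 cell types, in blue, with the median of each list as a black bar, grey for the middle 95% of all gene names, dashed lines at 2-fold and open circles for bounds. The hepatocyte markers, with a median of 2.90, span the values of the higher enzymes, and the lists of cortical cells lie near 0.

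The split between the enzymes was set against other processing of the same arrays. Mat1a, Bhmt, Dmgdh, Bhmt2 and Gnmt kept ratios above 2-fold under every alternative that gave a value, and the other genes stayed within 2-fold under all of them. The size depended more on the processing for the dim genes. Normexp correction was run with an offset of 50 added to every signal, which by construction shrinks the ratios of dim probes most. With normexp background correction followed by quantile normalization, the log2 ratio of Bhmt2 was 1.01, that of Dmgdh 1.23 and that of Mat1a 2.13, while Bhmt had 3.51 and Gnmt 1.90.

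**Figure D5:**
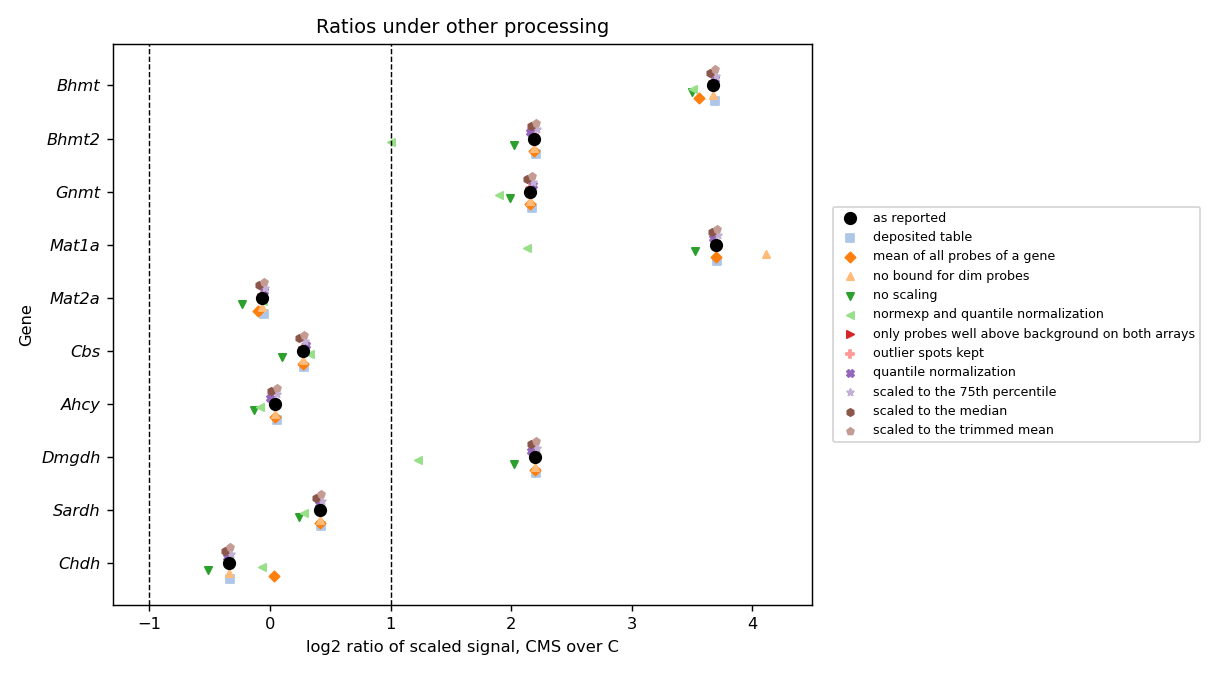
Log2 ratio of CMS over C for each enzyme as reported, in black, and under 11 other ways of processing the arrays, in colors and spread vertically for visibility, with dashed lines at 2-fold. Markers that coincide with the reported value are hidden behind it. Green triangles for normexp correction show the largest drops, to 2.13 for Mat1a, 1.01 for Bhmt2 and 1.23 for Dmgdh.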

How the data were processed

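The authors deposited, for each array, linear intensities from Agilent Feature Extraction 10.10.1.1, corrected for background and for gradients across the slide but unscaled. They also deposited a table of intensities, which equals the scanner values times 1 factor per array, with a mean near 2500 after the top and bottom 2% were trimmed and medians of 149 for C and 153 for CMS. Control spots and outlier spots were left out here, spots of 1 probe were averaged and signals were brought to an untrimmed array mean of 2500. On this scale the medians are 64.7 and 66.2, so the signals printed here are lower than in that table. For a probe dim on 1 array, that array entered the ratio at the lowest well-measured signal (17.8 for C, 17.6 for CMS). It entered at the probe's own signal if that was higher. The fold change of such a probe is therefore a bound, which holds for this limit and this processing only. Of 59305 spots, 65.2% and 65.9% were well above background, and no spot was saturated. Accessions were named without versions through RefSeq (GRCm38.p6), which named 30740 spots. The brightest probe stood for a gene. Changed means past 2-fold.

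The enzymes and all lists were chosen with earlier results of these data known. Genes named are the enzymes, pathway genes past 2-fold or sharing a reaction with an enzyme, chosen markers, Gapdh and Hnf4a. The number of arrays limits the precision, and the log2 ratios of repeated spots had an SD of 0.13 (342 probes). The steps were tested on simulated data, in which 200 of 200 genes changed 4-fold were recovered, with 0 false calls among 27119 genes. Only changes of that size were simulated, so ratios near 2-fold were not covered. The simulation gives no rate of false calls for these arrays, because the spread between mice was not measured. Alternatives covered scaling, background correction, dim probes, outliers, probe choice and a 1.5-fold limit. Python 3.11.15, numpy 2.4.6, pandas 2.3.3, R 4.3.3 and limma 3.58.1 were used. Both arrays were on 1 slide. No other column of sample values was left unused (0). Some listed genes are not reported here by name.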

Additional observations from a re-analysis of the deposited data

How the results depend on the processing

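No paired analysis was possible because C and CMS are 1 array each, and for the same reason no replicate could be left out. A shift counted as a move when it passed the SD between spots (0.13, log2) or, for counts, a factor of 1.5. Of the values compared, 294 did not move and 39 moved. No log2 ratio past 2-fold changed sign. Some smaller values did, among them Ahcy with no scaling and with normexp, and the medians of the pathway lists other than folate. Chdh, at -0.34 as reported, also changed sign with the mean of all probes, because its probes did not give one direction. The count of enzymes more than 2-fold higher was 5 as reported and under every alternative but 1. When a probe had to be well measured on each array it was 4, because Mat1a has no value there. Causes were not tested except where the construction of an alternative shows them.

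With no scaling, which shifted the median of all gene names from -0.03 to -0.20, the log2 ratios were 3.50 for Bhmt, 3.52 for Mat1a, 2.02 for Bhmt2, 2.02 for Dmgdh, 1.99 for Gnmt, 0.24 for Sardh, 0.10 for Cbs, -0.13 for Ahcy, -0.24 for Mat2a and -0.52 for Chdh. The median over the enzymes was then 1.11. The list medians were -0.19 for the methionine cycle, -0.17 for transsulfuration, -0.013 for choline and betaine, -0.27 for folate and -0.18 for users of S-adenosylmethionine. No transsulfuration gene was higher (0), and 249 gene names were lower.

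With normexp and quantile normalization, run on median spot intensities, the log2 ratios were 3.51 for Bhmt, 1.01 for Bhmt2, 1.23 for Dmgdh, 1.90 for Gnmt, 2.13 for Mat1a and -0.066 for Chdh, and the median over the enzymes was 0.67. Among the lists, 0 transsulfuration genes, 0 choline and betaine genes and 1 user of S-adenosylmethionine were higher. Of all gene names, 262 were higher and 37 lower, against 531 and 153 as reported, and the share of changed names that were higher went from 77.6% to 87.6%. The offset of 50 in normexp moves the ratios of dim probes toward 0 by construction. How much of these shifts came from it was not tested.

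When a probe had to be well measured on each array, the median over the enzymes was 0.41, by construction without Mat1a, and 294 gene names were higher and 44 lower. With no bound for dim probes, Mat1a had 4.12 and 309 gene names were lower. With the mean of all probes, Chdh had 0.036 and 0 transsulfuration genes were higher. With a 1.5-fold limit, 991 gene names were higher and 563 lower, and the enzymes higher remained 5. For C, Mat1a at 13.3 lay under the limit of 17.8, and Bhmt2 at 26.3 and Dmgdh at 37.5 lay not far above it.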
